A study of Mus musculus with 6 samples.

Results

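The regions described here were listed as bound by NANOG in mouse embryonic stem cells (ESCs) with high and with medium Esrrb-GFP, not in Esrrb-GFP negative cells, and were listed for OCT4 in none of these 3 fractions. They were chosen by exact match of intervals between 6 ChIP-Seq lists, 1 per factor and fraction, and number 2180 of 23767 distinct regions in all, 9.17%. The cells were E-GFPd1 ESCs, a line derived from E14Tg2a (label Esrrb-2a-GFPd-IBIH) in which a destabilised GFP is expressed from *Esrrb*, so that a sort on GFP separates cells by recent *Esrrb* expression. All fractions came from cultures in LIF and FCS with no other treatment, were cross-linked before sorting, and are set apart by the gate, which was the top 10% of the GFP distribution for high, the 15% just above negative for medium, and GFP-negative cells for negative (the source label calls these Esrrb-low). NANOG was precipitated with a rabbit polyclonal antibody made by the study's laboratory and OCT4 with a goat polyclonal antibody. Each library was prepared from pooled ChIPs of a single reporter line, so that there is 1 library per factor and fraction, no spread between replicates, and no test between fractions.

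NANOG is a homeodomain protein of the naive pluripotency network, in which it acts together with OCT4, a POU domain protein that commonly binds DNA beside SOX2 on a composite Oct-Sox element. ESRRB, an orphan nuclear receptor that binds DNA as a monomer, is itself a target of NANOG and sustains self-renewal. The question addressed by the sort is how binding of NANOG and OCT4 changes as cells lose *Esrrb* expression.

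Sequences are shown first for 7 of these regions, because each lies at a gene of pluripotency, signalling or chromatin described further on and holds a motif match inside the region. Each is the whole region from the mouse assembly mm9 (plus strand, counted from 1), and capitals mark matches on either strand to the SOX type, ZIC type, ESRRB and TEAD motifs whose letters are given with their shares below.
Dppa4, chr16:48282972-48283091: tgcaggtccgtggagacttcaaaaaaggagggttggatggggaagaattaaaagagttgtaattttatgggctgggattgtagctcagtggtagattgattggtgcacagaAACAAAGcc
Tcfcp2l1, chr1:120538992-120539131: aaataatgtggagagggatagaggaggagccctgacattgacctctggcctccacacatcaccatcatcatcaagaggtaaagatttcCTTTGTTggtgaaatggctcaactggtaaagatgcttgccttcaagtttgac
Bmp4, chr14:47011252-47011451: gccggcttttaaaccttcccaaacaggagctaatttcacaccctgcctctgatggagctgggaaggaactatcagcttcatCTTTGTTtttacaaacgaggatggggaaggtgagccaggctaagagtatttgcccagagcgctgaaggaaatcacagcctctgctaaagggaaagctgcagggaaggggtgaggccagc
Map2k1, chr9:64046892-64047071: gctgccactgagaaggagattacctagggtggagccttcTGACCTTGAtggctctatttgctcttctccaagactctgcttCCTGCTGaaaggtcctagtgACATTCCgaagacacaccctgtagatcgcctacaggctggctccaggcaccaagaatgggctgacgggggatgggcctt
Sos1, chr17:80818092-80818191: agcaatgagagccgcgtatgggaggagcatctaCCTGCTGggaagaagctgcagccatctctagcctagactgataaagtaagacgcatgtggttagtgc
Kdm4c, chr4:73903912-73903971: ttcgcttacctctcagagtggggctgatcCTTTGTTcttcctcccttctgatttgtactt
Jarid2, chr13:44851012-44851071: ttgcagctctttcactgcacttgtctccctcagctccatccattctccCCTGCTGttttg

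Windows of 200 bases are shown for 3 further regions because each stands for a family of bound regions with like sequence, of which families 1, 2 and 4 held 100, 44 and 20 of the 2180 OCT4-free NANOG regions. Capitals mark a ZIC type match in family 1, an Oct-Sox match in family 2, and matches to SOX type and TEAD motifs in family 4.
Family 1, chr5:77613042-77613241: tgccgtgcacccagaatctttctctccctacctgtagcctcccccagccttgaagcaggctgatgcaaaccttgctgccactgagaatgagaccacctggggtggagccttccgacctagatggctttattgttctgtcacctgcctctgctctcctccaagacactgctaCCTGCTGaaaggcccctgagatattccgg
Family 2, chr9:76249812-76250011: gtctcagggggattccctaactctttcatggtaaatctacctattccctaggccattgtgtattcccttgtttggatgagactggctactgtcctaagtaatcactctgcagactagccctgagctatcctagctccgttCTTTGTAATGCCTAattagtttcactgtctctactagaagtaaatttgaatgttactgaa
Family 4, chr1:66959032-66959231: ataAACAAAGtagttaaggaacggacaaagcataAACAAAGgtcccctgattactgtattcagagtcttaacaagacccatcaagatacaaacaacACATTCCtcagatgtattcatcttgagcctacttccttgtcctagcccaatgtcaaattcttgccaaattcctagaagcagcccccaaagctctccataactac

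Most NANOG regions shared by high and medium cells were lost in negative cells. The NANOG list of high cells holds 9425 regions, of which the medium list shares 4500, 47.7%, and 4346 of these were absent from the negative list, 96.6%. The OCT4-free regions made up 2180 of these 4346, 50.2% (95% Wilson interval 48.7 to 51.6), against 842 with OCT4 in high and medium and 813 with OCT4 in all 3 fractions. Loss in negative cells was not particular to them, since the NANOG list of negative cells holds 286 regions in all. The remaining regions carried OCT4 in high only (226), in medium only (136), in medium and negative (75), in high and negative (57) or in negative only (17).

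NANOG regions without OCT4 were the larger part of the NANOG list of high cells. There were 5295 of them, 56.2% of 9425, and 2180 followed the pattern described here, 41.2% (39.9 to 42.5). A further 2974 were in the high list only, 56.2%, while 82 were kept in all 3 fractions and 59 were in high and negative but not in medium. NANOG was in the medium list at 42.7% (41.4 to 44.1) of regions without OCT4 and at 54.2% (52.7 to 55.7) of the 4130 with OCT4 in at least 1 fraction. Within the latter, the share was 47.4% (43.0 to 51.9) where OCT4 was in high only and 56.4% (53.9 to 58.9) where OCT4 was in all 3 fractions, and it reached 66.7% (48.8 to 80.8) in the 30 regions with OCT4 in negative cells only. These lists also chose the regions, so the shares are a description. A region counts as lost when under 50% of its highest depth-normalised signal was retained, and the lists carry no signal, so no value can be given for regions just inside or outside this threshold.

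**Figure D1:**
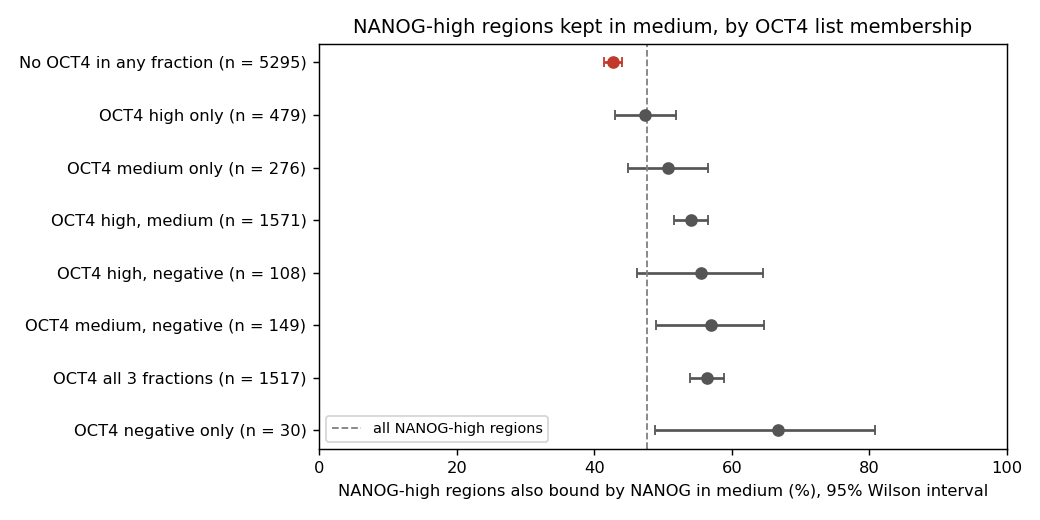
Share of NANOG-high regions that were also in the NANOG list of medium cells (x axis, percent), by the OCT4 lists that held the same region (y axis). Points are shares, bars are 95% Wilson intervals over regions, and the dashed line is the share of all NANOG-high regions, 47.7%; regions without OCT4 (red) lie at 42.7%, below it.

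OCT4-free regions were 80 bp wide at the median, with quartiles of 60 and 120 bp, and all bound regions had the same median with quartiles of 60 and 160 bp. Their widths ran from 40 to 860 bp, and 239 were at least 200 bp wide. Regions with both factors in high and medium and neither in negative cells, hereafter co-bound regions, had a median of 180 bp, and 48.5% of them were at least 200 bp wide. OCT4-free regions in the NANOG list of high cells alone, hereafter regions of the NANOG high list only, had a median of 60 bp, and regions with OCT4 in high and medium only and no NANOG in any fraction, hereafter NANOG-free OCT4 regions, had a median of 80 bp. A region is the merger of overlapping peaks of all libraries, so its width is not that of a single peak. The widest OCT4-free region, chr11:100411092-100411951, spanned 860 bp. GC content within 100 bp of the centre was 46.5% at the median (interquartile range 43.0 to 50), against 43.5% in windows 1 kb downstream. At the centres of NANOG-free OCT4 regions it was 49.5%. It was 46.0% for regions of the NANOG high list only and 47.0% for co-bound regions. The GC and CpG content commonly used to define a CpG island was reached by 4 of the 2180, 0.183%, against 0.728% of all bound regions and by none of the co-bound regions.

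Regions were found on every autosome and on chromosome X and on none of the 15.9 Mb of chromosome Y. Their density lay between 0.629 per Mb on chromosome 7 and 1.03 per Mb on chromosome 11 for autosomes, and was 0.444 per Mb on chromosome X. All bound regions together were also sparser on chromosome X, at 3.25 per Mb, than on any autosome.

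OCT4-free regions differed from regions with OCT4 first in the Oct-Sox element, the composite motif that OCT4 and SOX2 bind together. A match with at most 2 mismatches lay within 100 bp of the centre of 109 of 2180 regions, 5.00% (4.16 to 6.00), against 17.7% of all bound regions. Co-bound regions held it at 17.8% and NANOG-free OCT4 regions at 20.4%. The difference was −12.8 percentage points (95% Newcombe interval −15.7 to −10.2) from the former and −15.4 (−17.2 to −13.5) from the latter. With at most 1 mismatch, 0.413% of OCT4-free regions held a match and the difference from co-bound regions was −2.32 points. Regions in the NANOG high list only held it at 6.89%, so that those kept until medium were 1.89 points lower (−3.17 to −0.579). The flanks of the OCT4-free regions at 1 kb still held it less often, at 1.54%. These and the following intervals cover counting error over regions of these libraries only, and regions are not replicates.

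The octamer of OCT4 alone, ATGCAAAT, followed the same order. It was matched at 62 OCT4-free regions, 2.84% (2.22 to 3.63), against 7.86% of all bound regions, 7.60% of co-bound regions and 8.29% of NANOG-free OCT4 regions. The differences from the latter classes were −4.76 points (−6.84 to −2.97) and −5.45 points (−6.76 to −4.16). Among regions of 60 to 99 bp, OCT4-free regions held it at 3.03% (2.07 to 4.40) and the 79 co-bound regions at 2.53% (0.697 to 8.77), so the order was not kept there. With 1 mismatch allowed, 23.4% of OCT4-free regions held a match. From regions in the NANOG high list only, the difference was 0.356 points (−0.523 to 1.29).

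SOX type motifs, counted with or without an octamer part beside them, were frequent. CTTTGTT was found at 390 OCT4-free regions, 17.9% (16.3 to 19.6), against 12.2% of all bound regions and 5.53% in the 1 kb flanks. CATTGTT was found at 220, 10.1% (8.90 to 11.4), against 6.26% of all bound regions and 3.30% in the flanks. The letters of CATTGTT can form the SOX part of an Oct-Sox match, so these motifs overlap. NANOG-free OCT4 regions held CTTTGTT at 9.02% and CATTGTT at 4.27%, lower than OCT4-free regions by 8.87 points (6.92 to 10.8) and 5.82 points (4.35 to 7.34). Against co-bound regions the difference was 3.76 points (0.801 to 6.51) for CTTTGTT and 1.42 points (−0.989 to 3.60) for CATTGTT. Regions of the NANOG high list only held CTTTGTT at 16.5% and CATTGTT at 9.82%. The differences from them, 1.38 points (−0.695 to 3.49) and 0.273 points (−1.37 to 1.95), had intervals that included 0. SOX2 and other SOX proteins share this recognition sequence, and letters alone do not tell them apart.

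Another frequent motif was CAGCAGG, which belongs to the recognition sequence of the ZIC zinc finger proteins. It was matched at 478 OCT4-free regions, 21.9% (20.2 to 23.7), against 13.7% of all bound regions and 4.29% in the flanks. In NANOG-free OCT4 regions the share was 9.66%, a difference of 12.3 points (10.2 to 14.4). It was 19.6% in regions of the NANOG high list only (difference 2.32 points, 0.0889 to 4.58) and also in co-bound regions (2.33 points, −0.953 to 5.44). Among the OCT4-free regions with CAGCAGG, 78 of 478 also held AAGGTCA, 16.3%, against 10.6% of those without it. Conversely, 11.9% of them held CTTTGTT against 19.6% of the rest. Part of these shares came from families of like sequence, described further on. Among OCT4-free regions with fewer than 10 bound regions of like sequence, CAGCAGG was found at 329 of 1882, 17.5% (15.8 to 19.3), next to 18.6% (16.9 to 20.4) for CTTTGTT, and it was 7.77 points (5.67 to 9.90) above the NANOG-free OCT4 regions of the same kind. Among such regions the difference from the NANOG high list only was 0.902 points, with an interval that included 0 (−1.30 to 3.15).

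The ESRRB motif was counted in exact form, and with 1 mismatch allowed its share of OCT4-free regions was 18%. In exact form TCAAGGTCA was matched at 59 OCT4-free regions, 2.71% (2.10 to 3.48), against 1.39% of all bound regions and 0.436% in the flanks. It was 1.06 points (0.260 to 1.93) more frequent than in regions of the NANOG high list only, where 1.65% held it. The difference from co-bound regions was 0.925 points (−0.362 to 1.96) and that from NANOG-free OCT4 regions 0.895 points (0.0419 to 1.79). Among regions with fewer than 10 of like sequence, the difference from the high list only was 0.713 points, with an interval that included 0 (−0.140 to 1.64). Its core AAGGTCA, which lies inside TCAAGGTCA and which other orphan nuclear receptors such as NR5A2 also bind, was at 259 OCT4-free regions, 11.9% (10.6 to 13.3), against 7.81% of all bound regions and 14.1% of co-bound regions. The core was at 8.74% (6.51 to 11.6) of OCT4-free regions 40 bp wide and at 15.5% (11.4 to 20.6) of those of at least 200 bp. For Oct-Sox the order was the other way, with 5.12% (3.46 to 7.50) and 2.09% (0.897 to 4.80).

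A homeodomain motif that NANOG can bind, GCCATTA, was matched at 109 OCT4-free regions, 5.00% (4.16 to 6.00), against 2.80% of all bound regions. NANOG-free OCT4 regions held it at 1.49%, lower by 3.51 points (2.50 to 4.59). From co-bound regions the OCT4-free regions differed by 0.606 points (−1.20 to 2.16). In regions of the NANOG high list only the share was 4.74%, a difference of 0.259 points (−0.917 to 1.48). The TEAD motif ACATTCC was at 5.92% of OCT4-free regions against 4.85% of all bound regions. Regions of the NANOG high list only held it at 5.95%, a difference of −0.0341 points (−1.32 to 1.30). A KLF motif, GGGTGTGG, was at 4.08% of OCT4-free regions against 2.96% of all bound regions (29.5% of OCT4-free regions with 1 mismatch allowed). GGGTGTGG was 1.19 points (0.186 to 2.26) more frequent than in regions of the NANOG high list only. The other KLF motif searched, GGGCGTGG, was at 1.28% of OCT4-free regions and 1.25% of all bound regions. Its difference from the NANOG high list only was 0.175 points, with an interval that included 0 (−0.419 to 0.824). Of 9 motifs (those above without TCAAGGTCA and GGGCGTGG), 819 OCT4-free regions held none, 37.6%, and 935 held exactly 1, 42.9%. No match was found in 49.2% of NANOG-free OCT4 regions and 35.4% of co-bound regions. Motifs of TCF, OTX, GATA, STAT, CTCF and AP1 were also searched. The GATA motif AGATAA was 6.43 points (4.75 to 8.14) more frequent than in NANOG-free OCT4 regions. It was at 12.7% of OCT4-free regions and 12.3% in their flanks, so this difference was not matched by one between centre and flanks. For TCF (CTTTGAT) the difference was 2.40 points (1.12 to 3.71), and for the rest its interval included 0.

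**Figure D2:**
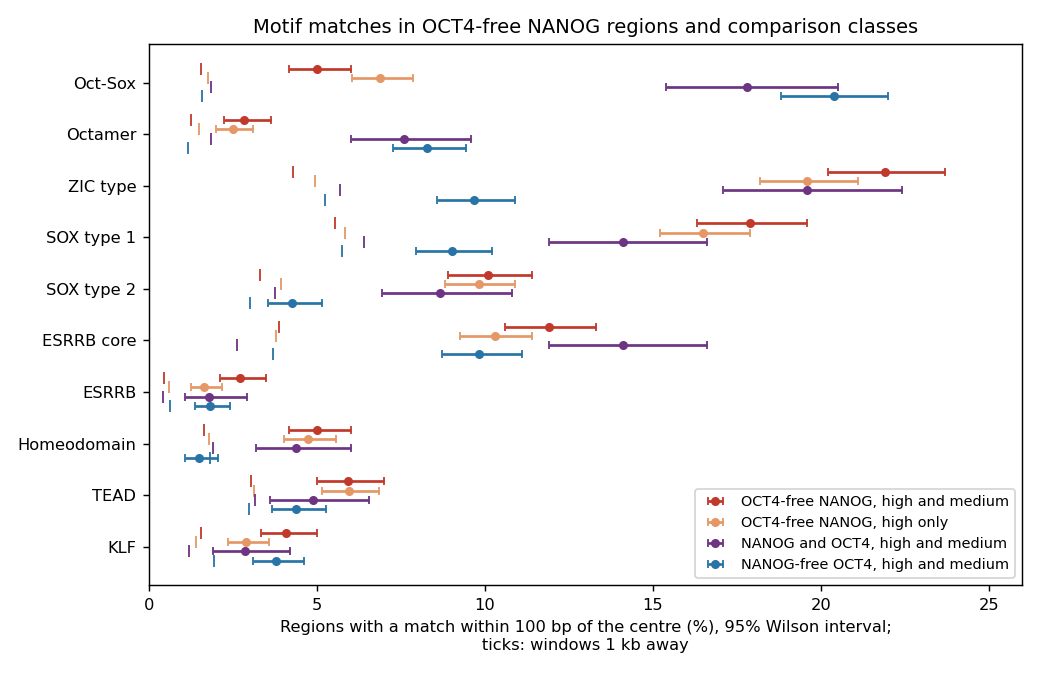
Share of regions with a motif match within 100 bp of the centre (x axis, percent; bars are 95% Wilson intervals over regions) for 10 motifs in 4 classes of regions. Vertical ticks are the shares in windows 1 kb away. SOX type 1 is CTTTGTT and SOX type 2 is CATTGTT. OCT4-free NANOG regions (red) lie at 5.00% for Oct-Sox, left of both classes with OCT4, and at 21.9% for ZIC type.

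Matches were searched up to 100 bp from the centre, so that evenly spread ones would have a median distance near 50 bp. In OCT4-free regions the median distance of the nearest match from the centre was 36.5 bp for CAGCAGG, 39.5 bp for CTTTGTT and 36.0 bp for CATTGTT, against 49.5 bp for the ESRRB core AAGGTCA. The ZIC type motif (ZIC) was matched in 8.39% of OCT4-free regions in the 50 bp to 1 side of the centre and in 1.79% in a 50-bp bin that began 500 bp away. The Oct-Sox motif (Oct-Sox) reached 1.83% in the bin next to the centre of OCT4-free regions and 8.41% at NANOG-free OCT4 regions.

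**Figure D3:**
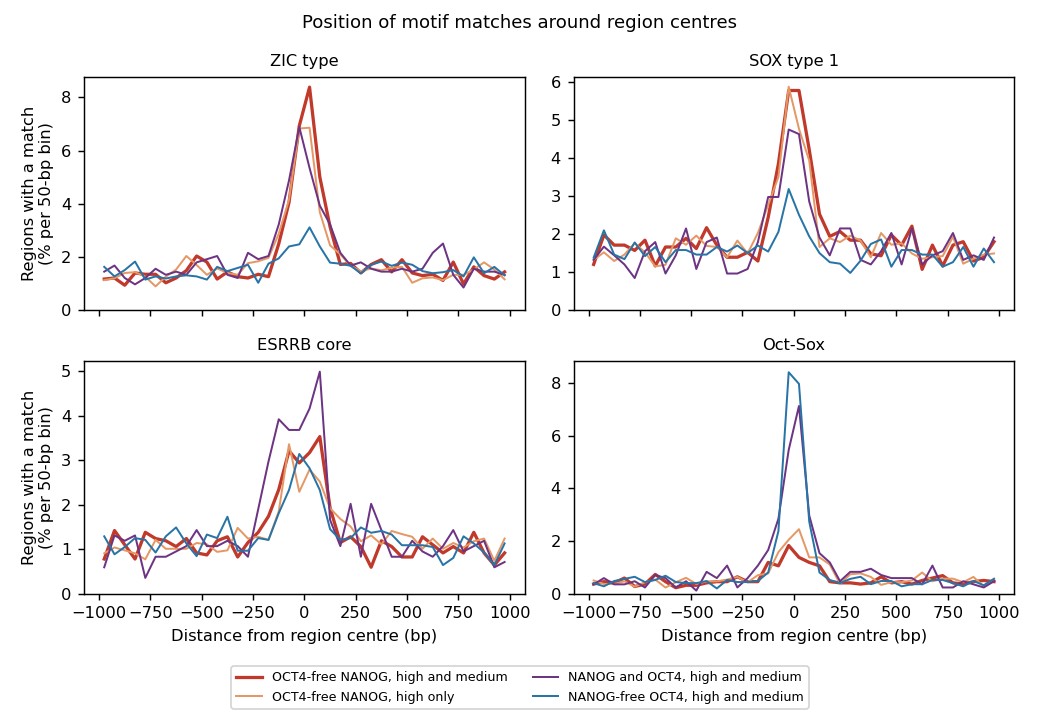
Share of regions with a match (y axis, percent per 50-bp bin) by distance from the region centre (x axis, bp), for 4 motifs and 4 classes of regions. In OCT4-free NANOG regions (red, thick) the ZIC type motif (ZIC) peaks at 8.39% and Oct-Sox at 1.83%.

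All 7-letter sequences were also ranked by how much more often they lay in the centre than in the flanks of OCT4-free regions, with no motif given. CAGCAGG came first, at 21.9% against 4.29%, followed by ACAATAG at 14.8% against 2.27%, AACAAAG at 17.9% against 5.53% and ACAAAGG at 16.6% against 4.24%. AACAAAG is the reverse complement of CTTTGTT. The ESRRB core AAGGTCA ranked 13 among the 8187 sequences counted on both strands. When the 1665 OCT4-free regions with no other bound region of like sequence were ranked alone, ACAAAGG came first at 18.1% against 4.32%, CAGCAGG second at 17.6% against 4.35%, and ACAATAG fell to rank 10 at 8.77%. No part of the octamer was among the leading 20 in either ranking.

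OCT4-free regions resembled another bound region in sequence about as often as bound regions in general. At 80% identity over 100 bp, 515 of 2180 windows aligned with the window of at least 1 other bound region, 23.6% (21.9 to 25.5), against 23.8% of all bound regions. The share was 19.6% in regions of the NANOG high list only, 3.99 points lower (1.71 to 6.28), and 25.3% in NANOG-free OCT4 regions (difference −1.66 points, −4.12 to 0.819). The direction against the latter turned with the number of partners required. Windows with at least 50 such partners were 9.04% of OCT4-free regions, 4.51% of NANOG-free OCT4 regions (difference 4.53 points, 3.09 to 6.01) and 11.8% of co-bound regions (−2.72 points, −5.33 to −0.345). The 515 fell into 228 families. The 8 families with the largest numbers of OCT4-free regions held 217 of the 515, which is 9.95% of the 2180. No repeat annotation was used, so the families are numbered and not named.

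Family 1 held 331 bound regions on 20 chromosomes, of which 100 were OCT4-free regions kept until medium, 86 were in the NANOG high list only and 48 were co-bound. NANOG was present in high cells at 317 of the 331, 95.8%, and OCT4 was absent from all fractions at 199, 60.1%. CAGCAGG was matched at 288 of them, 87.0%, and AAGGTCA at 140, 42.3%. The example printed above had 890 copies in mm9 at 80% identity over 100 bp, of which 224 held a NANOG region of high cells, 25.2% (22.4 to 28.1), and 71 an OCT4-free region kept until medium. Family 3, with 75 regions and 26 of the OCT4-free regions, was all alike to family 1 in part of the window and held CAGCAGG at 78.7%.

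Family 2 held 252 bound regions, of which 44 were OCT4-free regions kept until medium. It differed from family 1 in that OCT4 was in at least 1 list at most of its regions, with 36.5% OCT4-free. An Oct-Sox match was found at 127 of the 252, 50.4%, and at 16 of the 44, 36.4%. Families 6 and 7 were alike to it in part of the window. The ZIC type, ESRRB core, octamer and TEAD motifs were each found at 0 to 6 of its regions.

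Family 4 was made up largely of OCT4-free NANOG regions. It held 31 regions on 15 chromosomes, 20 of them kept until medium and 10 in the NANOG high list only, with OCT4 at 1. All 31 were NANOG regions of high cells. CTTTGTT was matched at 25, 80.6%, and the TEAD motif at 15, 48.4%, and no octamer or Oct-Sox match was found. Its example had 131 copies in mm9, of which 29 held a NANOG region of high cells, 22.1% (15.9 to 30.0), and 20 an OCT4-free region kept until medium. Family 5 was also without OCT4, with 14 regions, 8 of them kept until medium, and CAGCAGG at 13. Of the 420 copies of its example, 14 held a NANOG region of high cells, 3.33% (2.00 to 5.52). Family 8, with 25 regions of which 6 were OCT4-free and kept until medium, held the octamer at 56.0%. Its example had 40848 copies in mm9, of which 20 held a NANOG region of high cells, 0.0490%. Families 4 and 5 were singled out after their make-up was seen. How reads that match several copies were treated was not given in the sources used here, and its part in these counts was not tested.

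**Figure D4:**
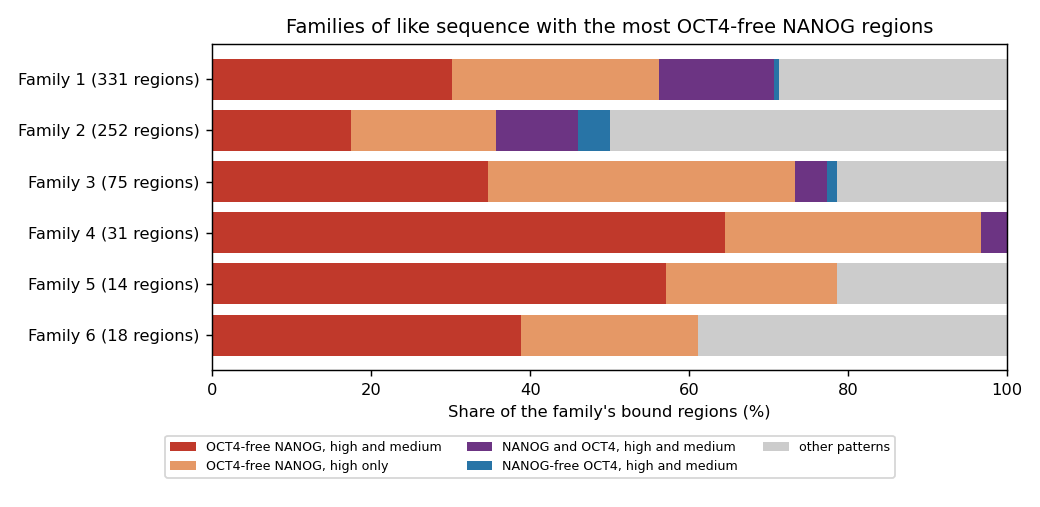
Make-up of the 6 families of like sequence with the most OCT4-free NANOG regions (y axis), as the share of the family's bound regions in each class (x axis, percent). The red part, OCT4-free NANOG regions kept until medium, is 30.2% of family 1, 17.5% of family 2 and 64.5% of family 4.

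OCT4-free regions had OCT4 nearby less often than co-bound and NANOG-free OCT4 regions did. An OCT4 region of any fraction lay within 5 kb of 550 OCT4-free regions, 25.2% (23.5 to 27.1). It lay within 500 bp of 241, 11.1% (9.81 to 12.4), so that these are free of OCT4 only as intervals. The median gap to OCT4 was 28.2 kb. Within 5 kb the share was 24.7% for regions of the NANOG high list only, a difference of 0.482 points (−1.90 to 2.89). Measured to their next OCT4 region, it was 33.0% for co-bound regions (−7.79 points, −11.5 to −4.18). For NANOG-free OCT4 regions, measured likewise, it was 35.2% (−9.96 points, −12.6 to −7.33). Of the 550 nearest OCT4 regions, 180 were bound in high and medium only, 32.7%, against 22.3% of all 18292 OCT4 regions. OCT4 was present in negative cells at 44.2% of these neighbours and at 56.7% of all OCT4 regions. Another OCT4-free region kept until medium lay within 5 kb of 134, 6.15%. At a limit of 10 kb, 86 pairs were formed and no group of 3.

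Most OCT4-free regions lay away from gene starts. The centre was within 1 kb of an annotated transcript start for 122 of 2180, 5.60% (4.71 to 6.64), against 8.90% of all bound regions and 8.21% of NANOG-free OCT4 regions (−2.62 points, −4.07 to −1.16). The median distance was 18.6 kb, between 22.2 kb for regions of the NANOG high list only and 15.3 kb for co-bound regions. Within 5 kb of a start lay 22.3%, which was 3.71 points (1.48 to 5.96) more than for the NANOG high list only. Centres fell between genes for 1210, 55.5%, in introns for 911, 41.8%, in coding exons for 14 and in UTRs of protein-coding genes for 23. Of all bound regions, 56.3% lay between genes and 39.9% in introns.

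Of 22367 protein-coding genes, 1714 had an OCT4-free region within 20 kb of the gene body, 7.66%, and 1516 of these had a single one. The share was read for 8 gene lists against this background, and against the share of genes with any bound region nearby, which was 46.4% of all protein-coding genes and 100% of the naive pluripotency list. Gene lengths differ between lists, and longer genes cover more regions. The median length was 9.25 kb for naive factors, 58.4 kb for FGF and ERK genes and 15.4 kb for all. Of all protein-coding genes, 9.29% had a region of the NANOG high list only, 3.29% a co-bound region and 9.67% a NANOG-free OCT4 region.

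Naive pluripotency factors had such a region at 9 of 27 genes, 33.3% (18.6 to 52.2). They were *Esrrb* and *Gdf3*, with 2 regions each, and *Klf2*, *Tcfcp2l1*, *Tbx3*, *Nr5a2*, *Dppa4*, *Zfp281* and *Jam2*, with 1 each. The same number, 9 of 27, had a region of the NANOG high list only, and 16 of 27 had a NANOG-free OCT4 region. The 2 regions of *Gdf3* lay outside it, 18.7 kb and 18.8 kb after its start, while *Esrrb* held its 2 regions inside the gene. One, chr12:87845412-87845471, lay 83 bp after an internal transcript start with a TCAAGGTCA match within 100 bp of its centre, and the other, chr12:87807292-87807331, lay 3.75 kb before another internal start. Around them, the locus held 3 co-bound regions of high and medium cells, and the nearest OCT4 regions were 2.36 kb and 4.56 kb away. At *Tcfcp2l1*, a transcription factor of the naive network, the region shown above lay in an intron 14.5 kb after the start and 0.200 kb from an OCT4 region. At *Nr5a2*, an orphan nuclear receptor, a 40-bp region lay 0.0200 kb from an OCT4 region, and at *Dppa4* the region 0.816 kb before the start was 26.1 kb from OCT4.

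*Nanog* and *Sox2* had no OCT4-free region kept until medium within 20 kb, although both had bound regions of other kinds, 4 and 8. At *Nanog* the NANOG region 4785 bp before the start, present in high and medium, was bound by OCT4 in medium cells. *Tet2*, which encodes an enzyme that oxidises 5-methylcytosine, had 1 such region, 200 bp wide and 25.6 kb into the gene. It lay beside a region of the NANOG high list only, and 2 co-bound regions were in the same gene. *Sall1*, a zinc finger gene, had 1 region 28.3 kb from its start, while its other NANOG region, 1271 bp before the start, was kept in negative cells as well. 

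**Figure D5:**
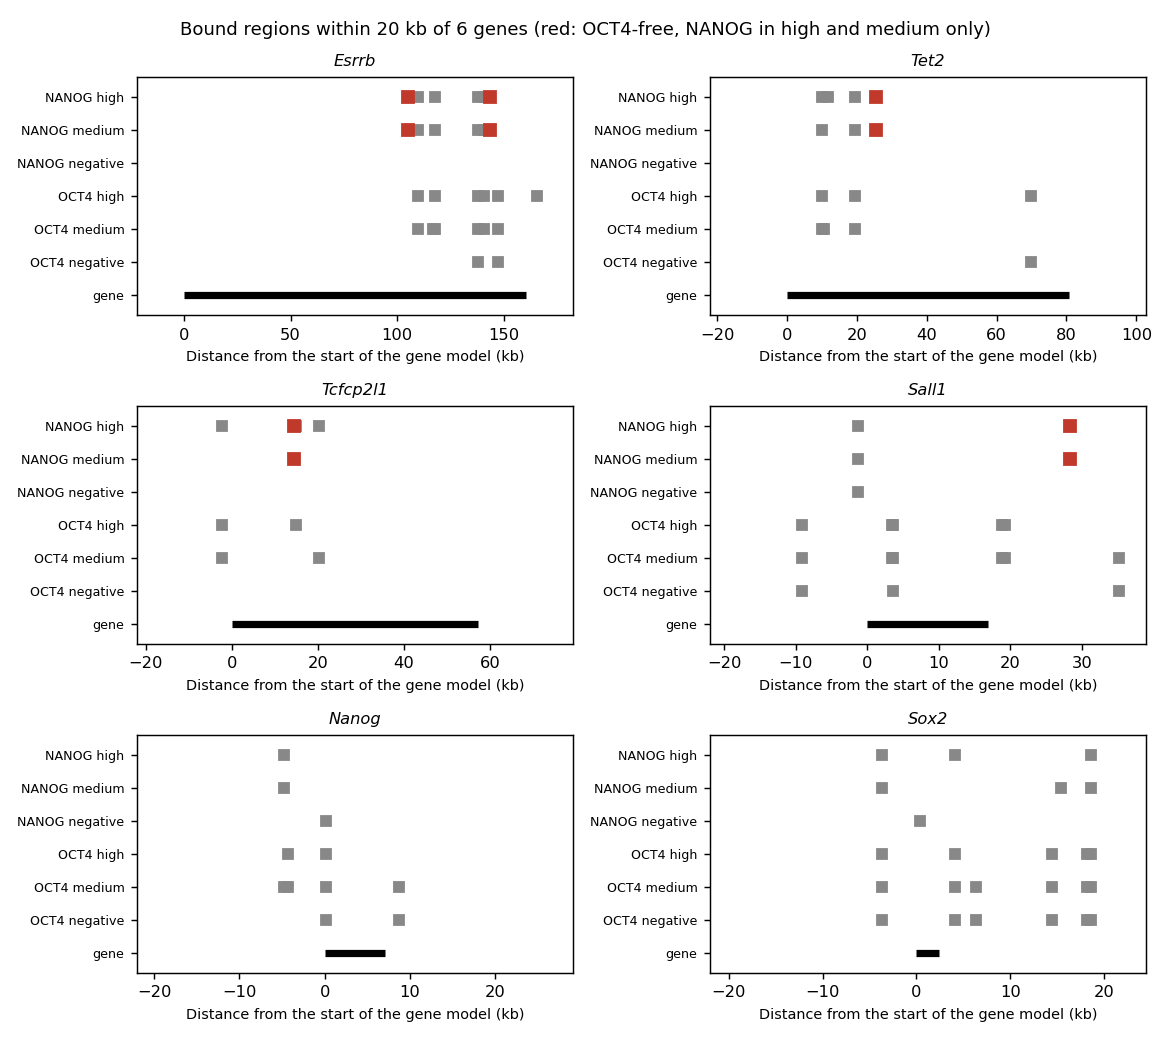
Bound regions within 20 kb of 6 genes, by list (y axis) and distance from the start of the gene model in the direction of transcription (x axis, kb). Red squares are OCT4-free regions kept until medium, grey squares are other regions and the black bar is the gene. *Esrrb* has 2 red regions, *Tet2*, *Tcfcp2l1* and *Sall1* have 1 each, and *Nanog* and *Sox2* have none.

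Formative and primed genes had a region at 3 of 25 (95% interval 4.17% to 30.0%), among them *Pou3f1* and *Sall1*. The region of *Pou3f1*, a POU factor of the formative state, lay 10.9 kb before the start and held a ZIC type match within 100 bp of its centre. Germ layer factors had 1 of 29, 3.45% (0.611 to 17.2), which was *Tbx5*, a cardiac T-box gene. A region of the NANOG high list only was at 5 of 25 formative and primed genes and 2 of 29 germ layer factors.

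FGF and ERK genes had a region at 8 of 27, 29.6% (15.9 to 48.5). *Sos1*, the exchange factor that activates RAS, had 3, *Grb2*, its adaptor, had 1, and *Ptpn11*, *Map2k1* (MEK1), *Spry1* and *Spry4* had 1 each, the last pair being inhibitors of the pathway. *Fgfr2* had 3, but its model in this annotation spans 3009 kb and all 3 lay at least 594 kb from a start. The region in an intron of *Map2k1*, shown above, is 180 bp wide, held TCAAGGTCA, ZIC type and TEAD matches, and lay 69.1 kb from OCT4. It had 23 bound regions of like sequence, so its motifs are shared with those regions. Regions of the NANOG high list only were at 7 of 27 of these genes and NANOG-free OCT4 regions at 10. Co-bound regions were at 2 of 27, 7.41% (2.06 to 23.4), against 3.29% of all protein-coding genes. This interval overlapped that of the OCT4-free regions.

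Nodal and BMP genes had a region at 6 of 33, 18.2% (8.61 to 34.4), and 2 had one within 5 kb. They included *Bmp4*, a ligand whose region 1.01 kb before the start is its only bound region of any kind within 20 kb, and *Id1*, a BMP target, with a region 1.48 kb after its start. *Lefty1* and *Lefty2*, which encode inhibitors of Nodal, share 1 region between them. LIF and STAT3 genes had 3 of 19, 15.8% (5.52 to 37.6), which were *Ptpn11*, *Bcl3* and the kinase *Tyk2*. Wnt genes had 4 of 36, 11.1% (4.41 to 25.3), which were *Gsk3b*, *Fzd7*, *Wnt7b* and *Lgr4*. For the NANOG high list only these counts were 4 of 33, 1 of 19 and 7 of 36, in the same order.

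DNA methylation and chromatin genes had a region at 5 of 28, 17.9% (7.88 to 35.6). Of these, *Suz12*, *Jarid2* and *Mtf2* encode PRC2 subunits or partners, *Kdm4c* a histone demethylase, and *Tet2* was described above. *Mtf2* had 2 regions, 3.47 kb and 4.00 kb after an internal transcript start, the second 0.100 kb from OCT4. Regions of the NANOG high list only were at 12 of these 28 genes, 42.9% (26.5 to 60.9), against 9.29% of all protein-coding genes. This interval overlapped that of the regions kept until medium.

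The protein-coding genes with the most OCT4-free regions within 20 kb were *Arhgap26* and *Csmd3* with 4 each. A further 23 genes had 3, among them *1700025G04Rik*, *Snx10* and *Mast4*. *Arhgap26* and *Csmd3* span 775 kb and 1211 kb. The region of *Spry4* is among those counted for *Arhgap26* and lies outside the latter gene. At *Csmd3*, regions with 22 and 13 bound regions of like sequence were among the 4. *Snx10*, a sorting nexin, is shorter, at 66.8 kb, and its 3 regions were among 4 bound regions of any kind, each of the 3 at least 50.8 kb from OCT4.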

How the data were processed

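NANOG and OCT4 ChIP-Seq lists of 3 sorted fractions were examined, 1 library per factor and fraction, grouped by the antibody and fraction in their labels. Per the labels and methods, the authors aligned reads to mm9 with Bowtie within GeneProf and found peaks with SISSRs. Peaks that overlapped between datasets were joined, and a region counted as lost in a fraction that kept under 50% of its strongest depth-normalised signal. The deposited files hold chromosome, start and end only, with no score, and depth per library is unknown, so absence from a list does not mean absence of reads. Starts were taken as counted from 0 and printed from 1, a shift of 1 bp if they were already counted from 1. Intervals of different lists were identical or did not overlap (0 overlapping pairs).

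The regions and all gene lists, motifs and comparison classes were chosen with earlier results of these data known. Motifs were searched on both strands within 100 bp of region centres, with windows 1 kb to either side as background. The reversed letters were also searched, but several contain CG, which is rare in mouse DNA, and they were not used as background. Those of the SOX type motifs contain no CG. Reversed CTTTGTT was at 7.75% of OCT4-free and 4.27% of NANOG-free OCT4 regions, and reversed CATTGTT at 2.57% and 1.49%. The part of base composition in the SOX type differences was not tested. Windows of 200 bases were aligned all against all with BLAST 2.17.0 (80% identity, 100 bp, low-complexity filter on), and families were formed by letting the window with most partners take all of its free partners. Genes came from GENCODE for NCBIM37 (mm9), where 1 listed symbol, *Sox1*, was not matched. Named genes were, per list, up to 5 with most regions within 20 kb (ties by distance to a start), the 5 genes with most regions, and *Tet2*, *Sall1*, *Tcfcp2l1*, *Sox2*, *Esrrb* and *Nanog*; other list genes are named in counts, and some are not reported here. Shares have 95% Wilson and differences 95% Newcombe intervals, over regions. No test between fractions was made. Functions were tested on simulated data. Python 3.11.15, numpy 2.4.6, scipy 1.17.1, pysam 0.24.0 and matplotlib 3.10.9 were used.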

Additional observations from a re-analysis of the deposited data

How the results depend on the processing

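No paired analysis was possible because each factor and fraction has a single library. The number of OCT4-free regions kept until medium lay between 1630 and 2106 under merging, distance and chromosome rules (overlap rules could only return the same 2180, since no intervals overlap), and was 852 when only regions of at least 100 bp were used. The share of OCT4-free NANOG-high regions that they make up stayed between 41.1% and 42.3% and was 45.3% with that width limit. The Oct-Sox share of OCT4-free minus co-bound regions, −12.8 points, was −2.32 with 1 mismatch, −16.8 in the region itself and −8.99 within 50 bp, and between −14.3 and −13.0 within 250 bp, without OCT4 within 5 kb, with fewer than 10 regions of like sequence or in regions of at least 100 bp (the last 2 chosen after seeing the data). Shares defined by a distance moved with it: near a transcript start 3.07% at 500 bp and 22.3% at 5 kb; with an OCT4 region nearby 13.9% at 1 kb, 33.2% at 10 kb and 42.9% at 20 kb; genes with a region nearby 1084 at 5 kb and 2821 at 50 kb. Regions of like sequence were 16.4% at 90% identity and 14.4% over 150 bp, and the share between genes was 57.9% with protein-coding genes only. With a 5 kb limit the formative and germ layer lists had 0 genes, the naive list 5, and the Nodal and BMP list 2 (3 with the closest gene only). The sign of the Oct-Sox difference was the same under each alternative run. Among regions with 10 or more of like sequence, several differences of OCT4-free regions turned sign, each with an interval that included 0. Against NANOG-free OCT4 regions these were CATTGTT (−1.79), GGGTGTGG (−0.818) and TEAD (−0.310). Against co-bound regions they were CTTTGTT (−0.345), AAGGTCA (0.302) and GGGTGTGG (−0.389). Against the NANOG high list only they were the octamer (−2.86), GGGTGTGG (−0.963) and TEAD (0.240). Narrow regions, unknown depth and unscored lists limit every comparison.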
